A study of Mus musculus with 6 samples.

Results

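The mouse genes examined here are the expressed members of the numbered Zfp family other than the clustered and single zinc finger genes named elsewhere in the series. Those genes were left out by symbol and not by position, and 7 members lie beside 1 of them. Members were chosen by a symbol made of Zfp and a number and by a mean of at least 10 CPM (counts per 1000000 counted reads) over all 6 libraries. Both genotypes enter that mean, so a change between them can itself move a gene across the minimum. Zfp566 (mean 9.21 CPM in controls, 17.6 in CKO) and Zfp599 (9.19 and 12.4) entered through their CKO values. So did Zfp941 (9.10 and 11.2) and Zfp53 (9.13 and 11.3), and this list may not be complete. Zfp239 (11.8 and 2.31), Zfp661 (10.7 and 4.04) and Zfp420 (11.0 and 6.25) missed the minimum through their CKO values. The rule left out 18 names, of which 17 were in the table. It kept 245 genes, out of 332 with such a symbol and 23441 genes in all. All 245 passed the filter on low counts and were tested. The names left out were selected on the same comparison of CKO with control (10 of the 17 were called lower and 1, Zfp446, higher), so counts over the members describe the remaining genes and not the family.

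Retinae were taken at embryonic day 14.5, and polyadenylated RNA was sequenced. The 3 control libraries came from mice with the genotype Ronin flox/flox. The 3 conditional knockout (CKO) libraries came from Ronin flox/flox mice that also carried Chx10-Cre::GFP in the +/tg state, in which the Chx10 promoter drives a Cre-GFP fusion in retinal progenitors. All mice had a mixed background that combined C57/B6 and FVB with 129/Sv and with SJL/B6, and both groups carried the floxed alleles, so the groups differed by the transgene as well as by the deletion. The labels do not say whether replicates were separate animals, so the p-values measure only the spread between these libraries. In whole retina, fewer cells of a type and less RNA per cell cannot be told apart.

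Ronin, encoded by Thap11, is a DNA-binding protein of the THAP family that works with the cofactor HCF-1. It is known for binding a composite promoter element shared with ZNF143. The Zfp genes encode C2H2 zinc finger proteins, in which each finger is a short zinc-bound fold that contacts a few bases of DNA or RNA. Many of them join a row of fingers to a KRAB box, which recruits the corepressor TRIM28 and through it the histone methyltransferase SETDB1. KRAB genes arose by repeated tandem duplication, sit in clusters, and often silence transposons. Others lack the box and act in transcription, RNA handling or ribosome assembly.

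Thap11 itself fell from 74.0 ± 7.17 CPM in controls to 9.49 ± 2.70 CPM in the CKO (SD, n = 3 each; edgeR adjusted p = 0.00425), or 12.8% of its control level. The libraries held between 23721052 and 28504391 reads, and the members took between 1.24% and 1.40% of the reads in each of the 3 controls. Retinal progenitor markers summed to between 7791 and 8570 CPM in all 6 libraries, and none of those 10 genes was called. Lens markers summed to between 13.5 and 22.1 CPM in the controls but to 11210, 67.1 and 838 CPM in CKO replicates 1, 2 and 3. All 18 tested lens genes had positive fold changes, and none was called. Blood vessel markers summed to between 292 and 350 CPM in the controls and between 254 and 276 CPM in the CKO, without overlap, with 1 of 10 genes of positive sign. Pigment epithelium markers summed to between 44.6 and 86.6 CPM in the controls and between 38.9 and 46.4 CPM in the CKO, with 0 of 7 of positive sign. No gene of these or the other 6 marker lists was called. The part of lens, vessel or pigment epithelium RNA in the values below was not tested, but the values without CKO replicate 1 are given for the called genes.

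The element associated with Ronin was looked up in the members' promoters in a full form of 14 letters and a core form of 10 letters that lies inside it. Both were written from general knowledge of the element and chosen after the fold changes had been seen. In either form 2 adjacent positions may hold any base. The letters of the core can be read from the capitals in the sequences below, of which the free positions are the fifth and the sixth. Both strands were read in RefSeq windows (build GRCm38.p6) from 250 bases before to 50 bases after each annotated start. Of the 199 members with a window, 28 (14.1%) held the core and 13 (6.53%) held the full string. Among all 27025 genes in the table, 2.80% held the core and 1.18% the full string, and among its 32851 windows 2.41% and 1.03% did. That table also holds genes that were not tested here, whereas every member was tested. Of the tested genes with a window, 580 held the core and 10841 did not, and 288 held the full string. The shares over all 27025 genes are therefore not a like comparison for the members. A match describes the letters and is neither a binding site nor a cause.

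Matches are shown first for 8 of the 9 members with the core whose values were lower in every CKO library than in every control, each written 5′ to 3′ in the direction of the string with the core in capitals. Zfp738 passed the test. Zfp605, Zfp940, Zfp790, Zfp334 and Zfp317 were called by 1 of 2 tests (DESeq2 but not edgeR), Zfp606 was called by edgeR only once control replicate 2 was left out, and Zfp358 was called by neither. Zfp317 held a pair of matches.
Zfp738 (chr13:67683544-67683583, plus strand): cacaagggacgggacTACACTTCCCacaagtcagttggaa
Zfp605 (chr5:110110054-110110093, minus strand): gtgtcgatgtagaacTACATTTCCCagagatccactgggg
Zfp940 (chr7:29853661-29853700, plus strand): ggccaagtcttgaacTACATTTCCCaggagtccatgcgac
Zfp790 (chr7:29815953-29815992, minus strand): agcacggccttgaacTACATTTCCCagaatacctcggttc
Zfp606 (chr7:12478268-12478307, plus strand): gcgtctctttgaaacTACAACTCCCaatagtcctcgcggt
Zfp334 (chr2:165388353-165388392, plus strand): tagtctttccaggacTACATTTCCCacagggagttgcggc
Zfp317, first match (chr9:19621854-19621893, plus strand): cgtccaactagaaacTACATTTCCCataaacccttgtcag
Zfp317, other match (chr9:19621898-19621937, plus strand): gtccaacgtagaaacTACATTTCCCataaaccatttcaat
Zfp358 (chr8:3493100-3493139, plus strand): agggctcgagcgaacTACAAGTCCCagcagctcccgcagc

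Members with a match and other values are shown for contrast. Zfp566 and Zfp189 had higher values in every CKO library, and in Zfp180 and Zfp260 the groups overlapped. The second Zfp189 window stops at the edge of the table's sequence.
Zfp566 (chr7:30090560-30090599, minus strand): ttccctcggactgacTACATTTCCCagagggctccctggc
Zfp189, first match (chr4:49521139-49521178, minus strand): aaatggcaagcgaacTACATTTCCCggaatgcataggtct
Zfp189, other match (chr4:49521200-49521225, minus strand): cTACAACTCCCaacatgcccagggag
Zfp180 (chr7:24081859-24081898, minus strand): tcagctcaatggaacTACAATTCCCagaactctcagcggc
Zfp260 (chr7:30095032-30095071, minus strand): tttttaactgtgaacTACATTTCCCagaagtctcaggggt

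The free positions of the core read TT in Zfp605, Zfp940, Zfp790, Zfp334 and both Zfp317 windows and also in Zfp566, Zfp260 and the first Zfp189 window. The letters at these free positions therefore did not separate the members shown with lower values from those shown with higher or overlapping ones. The letters on either side of the core were not compared. In the direction of the gene, the core began at position -56 in Zfp738, -23 in Zfp605, -37 in Zfp940 and -104 in Zfp790, counted from the annotated start, and at -74 in Zfp566.

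As a whole the members changed little between genotypes. Their median log2 fold change (CKO minus control) was -0.0090, beside -0.03 over all 14609 genes tested. The middle of the distribution ran from -0.14 to 0.14 between the quartiles, beside -0.20 to 0.12 for all genes. A total of 201 members (82.0%) lay within 0.3 of no change on the log2 scale, against 74.7% of all genes. In 122 members every CKO library fell inside the range of the 3 controls, a count with no share over all genes beside it. That range was often set by control replicate 2, the lowest control in 120 members and the highest in 94. Nothing is therefore read from this count. No member was higher by more than 1 log2 unit, and 7 were lower by more than that.

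With edgeR's quasi-likelihood test and Benjamini-Hochberg adjustment over all genes, 5 members (2.04%) fell and 0 rose, where 0.705% of all genes fell and 0.192% rose (0.897% in either direction). At an unadjusted p under 0.05 by edgeR, 16 of the 245 members were lower and 6 higher, beside 962 of all 14609 genes in either direction. DESeq2's Wald test called 12 lower (4.90%, beside 1.42% of all genes) and 3 higher (1.22%, beside 0.801%), and limma-voom called 5 in all. The groups did not overlap in 24 members with lower CKO values (9.80%, beside 6.91% of all genes) and in 15 with higher ones (6.12%, beside 5.74%). The rule leaves out many genes that fell. Among the 15 with higher values, Zfp566, Zfp599 and Zfp941 reached the minimum only through their CKO libraries. For both reasons nothing is read from these shares.

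**Figure D1:**
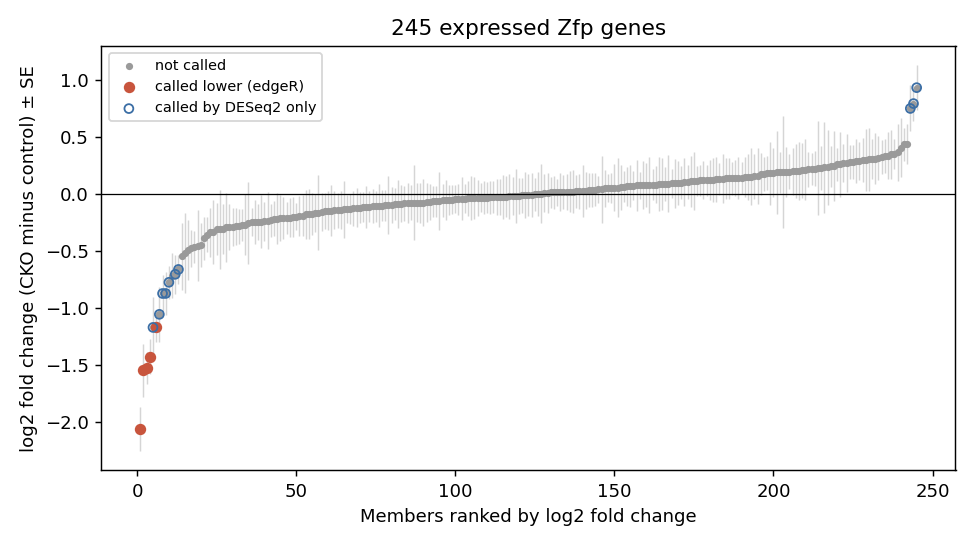
Log2 fold change (CKO minus control, y axis) with its SE for all 245 members, ranked along the x axis; filled red points passed edgeR's test and open blue circles passed only DESeq2's. Most of the ranking is flat around 0, with a short tail of lower members that reaches -2.06 and a shorter one of higher members that reaches 0.93.

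Zfp110 showed the largest fall. It encodes a KRAB zinc finger protein, also called NRIF, known for binding the p75 neurotrophin receptor and passing on its death signal in neurons. It measured 37.8, 35.2 and 40.7 CPM in control replicates 1 to 3 and 10.6, 9.71 and 6.91 CPM in CKO replicates 1 to 3. Every CKO library was thus far below the lowest control, and the spread within each group was small beside the gap. The log2 fold change was -2.06 ± 0.19 (SE; edgeR adjusted p = 0.0059), and Zfp110 was also called under every alternative tried.

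Zfp862 had 43.8, 42.9 and 41.0 CPM in the controls and 16.0, 14.9 and 13.5 CPM in the CKO. The 3 controls lay close together and well above the CKO libraries. Its log2 fold change was -1.52 ± 0.14 (edgeR adjusted p = 0.0059). The symbol matched RefSeq only through a synonym, to a record named as a pseudogene (Zfp862-ps), and no coding sequence was read for it. Leaving out CKO replicate 3 ended the call (adjusted p = 0.0595).

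Zfp738, the member with the core string shown above, encodes a KRAB protein with 20 fingers in the annotated coding sequence. It measured 33.1, 20.1 and 34.9 CPM in the controls and 11.1, 9.86 and 9.20 CPM in the CKO. Control replicate 2 was lower than the other controls but still above every CKO library. The log2 fold change was -1.55 ± 0.23 (edgeR adjusted p = 0.0294). Scaling by library size only ended the call (adjusted p = 0.0535), as did leaving out any single library other than control replicate 2, with adjusted p from 0.0811 to 0.191.

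Zfp697 encodes a protein with 11 fingers and no KRAB box found. It had 22.2, 24.6 and 26.1 CPM in the controls and 9.42, 9.41 and 8.22 CPM in the CKO. All CKO libraries lay below all controls. The log2 fold change was -1.43 ± 0.15 (edgeR adjusted p = 0.00791). Dropping control replicate 3 ended the call (adjusted p = 0.0614), and so did dropping CKO replicate 1, 2 or 3 (0.0608, 0.056 and 0.0854).

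Zfp286, with 10 fingers and a borderline match to the KRAB box, had the smallest fall of the called members. It measured 26.5, 25.2 and 26.6 CPM in the controls and 11.8, 11.9 and 11.3 CPM in the CKO. Both groups were tight and did not overlap. The log2 fold change was -1.16 ± 0.14 (edgeR adjusted p = 0.0108), and the call ended without control replicate 3 (0.076) or without CKO replicate 1, 2 or 3 (0.0922, 0.0899 and 0.128).

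Without CKO replicate 1, the library with the highest lens signal, the log2 fold changes of Zfp110, Zfp738, Zfp862, Zfp697 and Zfp286 were -2.19, -1.62, -1.58, -1.46 and -1.17. None of the called falls was smaller in that fit. CKO replicates 2 and 3 still held lens sums of 67.1 and 838 CPM, so the part of lens RNA was not tested by it. The windows of Zfp110 and Zfp697 are printed here because both genes fell and neither window holds the core string on either strand, which says only that these letters are not in this window.
Zfp110 (chr7:12834511-12834810, plus strand): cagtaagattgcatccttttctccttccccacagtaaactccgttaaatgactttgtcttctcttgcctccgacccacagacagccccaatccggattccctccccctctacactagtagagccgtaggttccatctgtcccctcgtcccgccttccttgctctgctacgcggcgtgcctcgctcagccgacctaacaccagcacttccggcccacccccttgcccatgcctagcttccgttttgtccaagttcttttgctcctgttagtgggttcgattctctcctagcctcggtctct
Zfp697 (chr3:98382231-98382530, plus strand): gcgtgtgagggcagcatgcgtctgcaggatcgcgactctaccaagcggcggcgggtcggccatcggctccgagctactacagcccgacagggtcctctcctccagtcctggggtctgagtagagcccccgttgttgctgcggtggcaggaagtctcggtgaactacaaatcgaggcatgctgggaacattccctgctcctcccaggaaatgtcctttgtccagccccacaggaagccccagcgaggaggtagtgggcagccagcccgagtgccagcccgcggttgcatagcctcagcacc

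**Figure D2:**
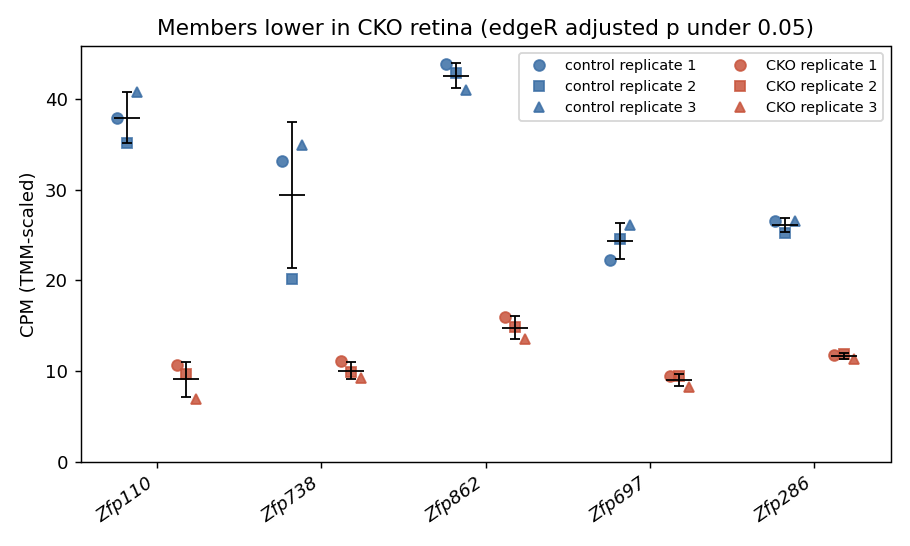
CPM (y axis, scaled by TMM) of the 5 called members in each library, controls in blue and CKO in red, with a symbol per replicate number and the mean and SD over 3 libraries as bars. In each gene all 3 CKO points sit below all 3 control points; the narrowest gap is in Zfp738, between 20.1 and 11.1 CPM.

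A further 7 members were lower by DESeq2 alone, with no call by edgeR on all 6 libraries. Zfp369 is the close paralog of Zfp110 and likewise encodes an NRIF-type KRAB protein. It measured 14.8, 28.4 and 21.5 CPM in the controls and 10.2, 11.2 and 9.77 CPM in the CKO, without overlap but with a wide control spread. Its log2 fold change was -1.06 ± 0.24, with an adjusted p of 0.179 by edgeR and 0.00698 by DESeq2. Once control replicate 1 was left out, edgeR called Zfp369 lower. Reads from sequence shared by such paralogs can be divided or dropped in counting, so the values of Zfp110 and Zfp369, and of other near-identical zinc finger copies, are uncertain to that extent.

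Zfp169, a KRAB gene with 17 fingers, had 11.3, 15.5 and 21.97 CPM in the controls and 6.06, 8.51 and 7.12 CPM in the CKO. The controls were scattered, and the closest libraries across the groups were control replicate 1 and CKO replicate 2. Its log2 fold change was -1.17 ± 0.27 (adjusted p = 0.174 by edgeR, 0.00538 by DESeq2). No core string was found in its windows.

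The remaining 5 all encode KRAB proteins and all hold the core string. Zfp605 measured 20.3, 18.5 and 24.2 CPM in the controls and 12.2, 11.5 and 10.8 CPM in the CKO (log2 fold change -0.87 ± 0.16; adjusted p = 0.0753 by edgeR and 0.000415 by DESeq2). Zfp317 measured 90.5, 81.0 and 82.5 CPM in the controls and 53.7, 56.4 and 50.5 CPM in the CKO (-0.66 ± 0.13; 0.0807 and 0.000363). In both, the CKO libraries were close to one another and clearly below the controls. Zfp334 had 69.5, 103 and 77.9 CPM in the controls and 52.5, 51.6 and 49.8 CPM in the CKO, with control replicate 2 the highest library (-0.70 ± 0.17; adjusted p = 0.212 by edgeR and 0.0265 by DESeq2).

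Zfp790 and Zfp940 are next to each other in the RefSeq annotation (GRCm38.p6). Zfp790 measured 24.8, 26.9 and 27.4 CPM in the controls and 17.1, 14.9 and 14.2 CPM in the CKO (log2 fold change -0.77 ± 0.15; adjusted p = 0.0794 by edgeR and 0.000371 by DESeq2). Zfp940 measured 13.5, 19.1 and 13.7 CPM in the controls and 8.48, 8.47 and 8.26 CPM in the CKO (-0.87 ± 0.19; 0.134 and 0.00415). Neither pair of groups overlapped, and the CKO values of Zfp940 were nearly the same in all 3 libraries. Zfp420, on the other side of Zfp940 and under the CPM minimum, had 11.0 ± 2.21 and 6.25 ± 0.560 CPM (SD, n = 3) and was called lower by DESeq2 (adjusted p = 0.0301) but not by edgeR (adjusted p = 0.229), while Zfp30, beyond Zfp790, had 15.6 ± 0.443 and 18.7 ± 1.85 CPM (adjusted p = 0.904).

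Higher CKO values were fewer and smaller. Among the genes below, Zfp566 and Zfp599 met the minimum of 10 CPM only through their CKO libraries. Zfp566, a KRAB gene, measured 7.54, 9.77 and 10.3 CPM in the controls and 14.6, 18.2 and 19.998 CPM in the CKO (log2 fold change 0.93 ± 0.20; adjusted p = 0.123 by edgeR and 0.00144 by DESeq2). Zfp772, also a KRAB gene, measured 15.2, 11.9 and 14.4 CPM in the controls and 22.95, 24.01 and 24.99 CPM in the CKO (0.79 ± 0.16; 0.0895 and 0.000338). Zfp189, with 16 fingers and no KRAB box found in the longest annotated coding sequence, measured 18.7, 11.6 and 17.7 CPM in the controls and 26.5, 25.8 and 28.7 CPM in the CKO (0.75 ± 0.20; 0.284 and 0.0359). In all 3 genes every CKO library was above every control. Among members whose groups did not overlap, the next 3 by size were Zfp949, Zfp599 and Zfp937, with log2 fold changes of 0.44, 0.44 and 0.35, and they were called by neither test.

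**Figure D3:**
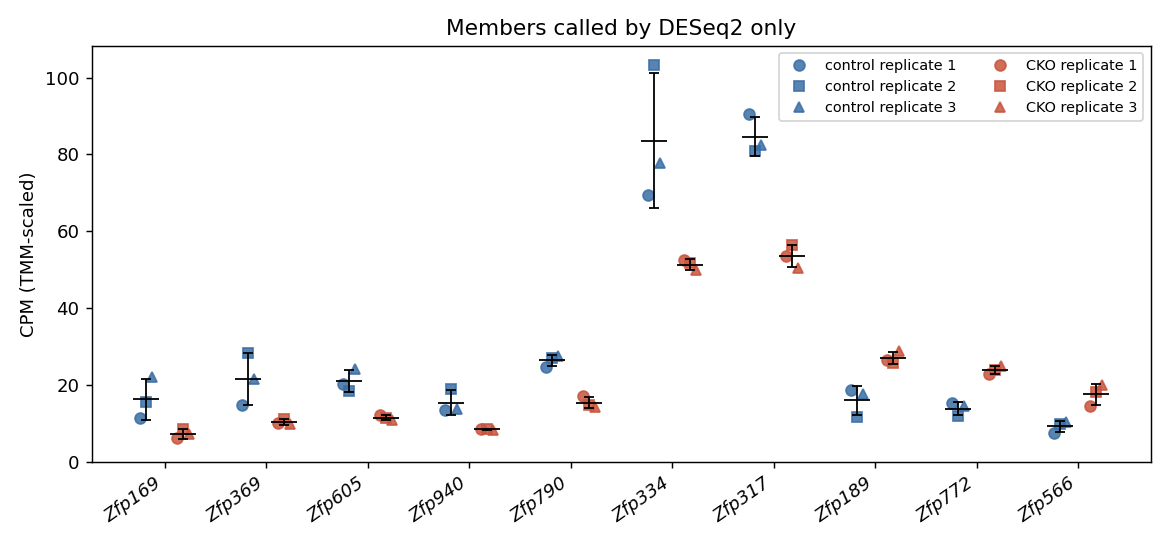
CPM (y axis, scaled by TMM) of the 10 members called by DESeq2 but not by edgeR, in each library, controls in blue and CKO in red, with mean and SD over 3 libraries. The 7 genes on the left have all CKO points below the controls and the 3 on the right have them above; control replicate 2 lies apart in Zfp334 at 103 CPM.

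Control replicate 2 touched many of these values. It was the lowest control in 120 members and the highest in 94. The members' median SD of log2 CPM was 0.27 over the 3 controls, 0.11 over controls 1 and 3 alone, and 0.08 over the CKO libraries. Without it, edgeR called 9 members lower and 1 higher, where 0.995% of all genes were lower and 0.487% higher. The original 5 all remained, and Zfp605 (adjusted p = 0.0239), Zfp317 (0.0272), Zfp790 (0.0479) and Zfp606 joined them, with Zfp772 (0.0336) on the higher side. Zfp606, a KRAB gene, had 112, 66.2 and 93.5 CPM in the controls and 54.7, 57.0 and 53.6 CPM in the CKO, without overlap but with controls that differed widely.

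Control replicate 2 also had the highest sum of periocular mesenchyme markers, 185 CPM against 72.5 and 76.6 CPM in the other controls and 52.5 to 75.1 CPM in the CKO, and their part in the values was not tested. Its deviation was set beside base composition. Across the 243 members with a GENCODE transcript, its log2 CPM minus the mean of the other controls had a Pearson correlation of 0.741 (Spearman 0.762) with the percentage of G and C in the transcript. The points share 3 libraries and are not independent, so no p is given. With the members in 3 groups of 81 by G and C content, the median deviation was -0.56 in the lowest group, -0.03 in the middle and 0.39 in the highest. KRAB genes made up 62, 42 and 15 of these groups. Their median log2 fold changes were 0.08, -0.02 and -0.08 with all libraries, and -0.07, -0.00036 and 0.08 without control replicate 2, so their order turned over when that library was left out. The part of base composition in single results was not tested.

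**Figure D4:**
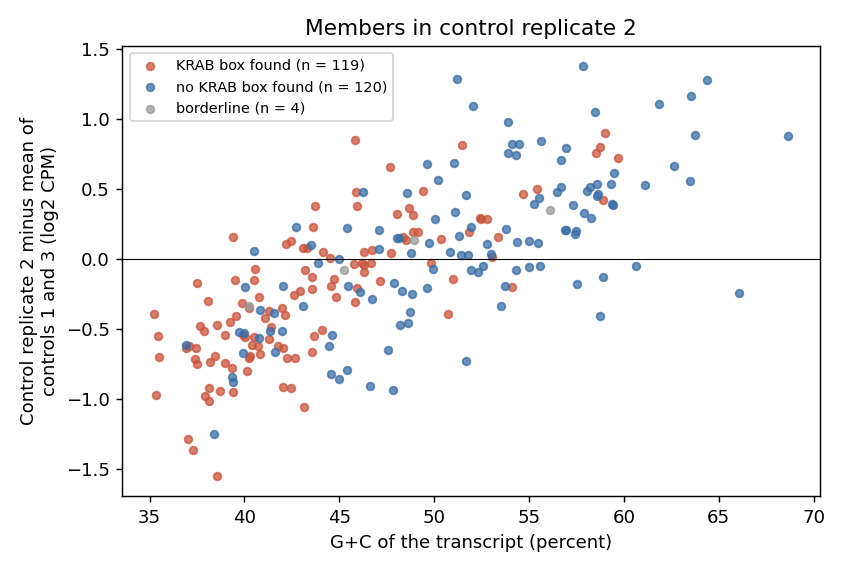
Log2 CPM of control replicate 2 minus the mean of control replicates 1 and 3 (y axis) against the percentage of G and C in the transcript (x axis) for 243 members, coloured by whether a KRAB box was found. Members with low G and C content, mostly KRAB genes, lie below 0 and members with high content above it (Pearson r = 0.741).

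Members were then split by the core string, with the same counts over other genes beside them. Of the 28 members with it, 9 (32.1%) had all CKO libraries below all controls, against 9 of 171 (5.26%) members whose windows lacked it. Among tested genes that are no members, 28.99% of the 552 with the core had such values, and among all tested genes 5.61% of the 10841 without it had them. The other genes include left-out Zfp genes that fell and hold the core, such as Zfp111 and Zfp383, so the rule itself sets part of these shares and nothing is read from their likeness or difference. Higher CKO values without overlap were seen in 3 of the 28 (10.7%) and in 9 of the 171 (5.26%). Among the 552 other genes with the core 77 (13.9%) had such higher values, as had 5.29% of the 10841 without it. Zfp566, among the 3, and Zfp941, among the 9, reached the minimum of 10 CPM only through their CKO libraries. Zfp420 and Zfp661 hold the core and had lower CKO values without overlap. Those values kept them under the minimum, so they count among the 552. The minimum thus also sets part of these shares. The medians were -0.21 with the string and 0.0096 without it. By edgeR, 1 of the 28 (Zfp738) and 2 of the 171 (Zfp110 and Zfp697) fell, beside 65 lower and 9 higher among the 552 other genes with it. Without control replicate 2, 46.4% of the members with the core and 15.2% of those without had lower values without overlap, against 38.2% of the 552 other genes with the core and 13.8% of all genes tested.

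**Figure D5:**
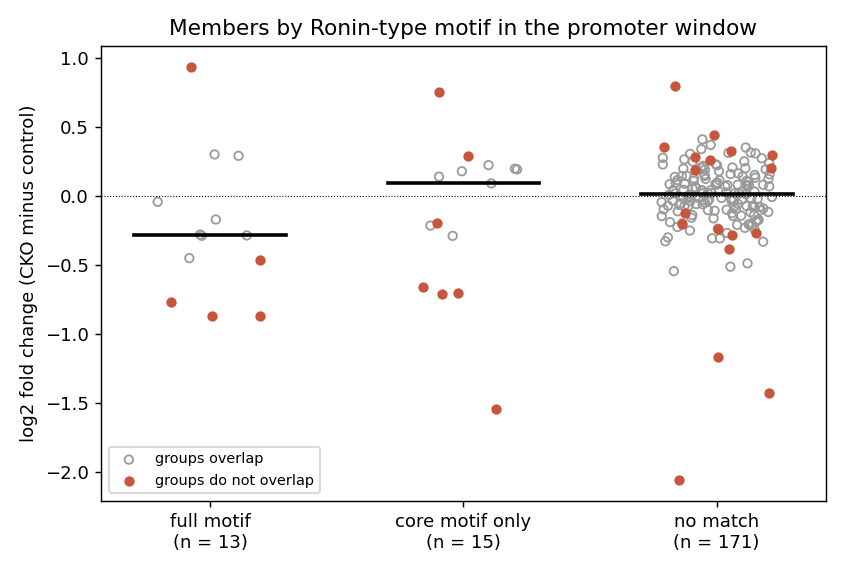
Log2 fold change (CKO minus control, y axis) of the 199 members with a promoter window, split into windows with the full string, with the core alone and with neither; red points are genes whose groups do not overlap and black lines are medians. Red points below 0 are frequent in the first 2 columns and rare among the 171 members without a match, but both columns also hold genes above 0.

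Members were also split by protein class, beside the 0.705% of all genes that edgeR and the 1.42% that DESeq2 called lower. A KRAB box was found in 119 members, of which edgeR called 2 lower (Zfp110 and Zfp738) and DESeq2 called 9 lower and 2 higher (median log2 fold change 0.05). No KRAB box was found in 120, of which edgeR called 1 lower (Zfp697) and DESeq2 called 1 lower and 1 higher (median -0.05). Of the 4 borderline members, Zfp286 was called lower by both. Among 136 members with 10 or more fingers, edgeR called 3 lower and DESeq2 called 9 lower and 1 higher. Among 73 with 4 to 9 fingers, edgeR called 1 lower (Zfp110) and DESeq2 called 2 lower and 2 higher. Among 34 with fewer fingers both called 0. The difference between classes was not tested.

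Listed members with known roles outside KRAB silencing were called by neither edgeR nor DESeq2. The 9 RNA and ribosome factors had a median log2 fold change of -0.07. They include Zfp598, which senses collided ribosomes, Zfp207, a spindle and splicing protein with 308, 175 and 364 CPM in the controls and 302, 372 and 350 CPM in the CKO, and Zfp593 and Zfp622, which act in assembly of the large ribosomal subunit. Zfp593 had 11.8 ± 1.09 and 14.9 ± 0.576 CPM (SD, n = 3; edgeR adjusted p = 0.789), while Zfp622 had 49.2, 113 and 42.8 CPM in the controls and 45.1, 46.3 and 51.8 CPM in the CKO. Only control replicate 2 of Zfp622 stood apart.

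The 12 partners of chromatin and repressor complexes had a median of -0.08. Zfp462, which protects heterochromatin and neural differentiation, had 195, 253 and 265 CPM in the controls and 195, 184 and 179 CPM in the CKO (log2 fold change -0.36 ± 0.15; edgeR adjusted p = 0.752), with control replicate 1 just above CKO replicate 1. Zfp410, an activator of Chd4, had 71.5 ± 6.28 and 77.4 ± 4.74 CPM, and Chd4 itself 1287 ± 550 and 911 ± 54.9 CPM (SD, n = 3), neither called. The 11 neural and developmental regulators had a median of -0.14. Zfp704 was highest among them by CPM, with 276, 256 and 326 CPM in the controls and 265, 195 and 171 CPM in the CKO, where CKO replicate 1 lay within the controls.

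Of 4 binders of GC-rich promoters none was called (median 0.02). Zfp131, the only member on the list of BTB domain factors, which may not hold every such member, had a log2 fold change of 0.0096. In a list of 8 KRAB repressors of known function Zfp110 fell and the median was 0.06. DESeq2 called Zfp110 and Zfp369 lower and Zfp189 higher there, although no KRAB box was found in the coding sequence read for Zfp189. Zfp809, which silences retroviruses in embryonic cells, had 11.7 ± 0.422 and 13.3 ± 0.973 CPM. Zfp568, a repressor of a placental Igf2 transcript, had 76.3 ± 11.5 and 75.6 ± 7.003 CPM, and Zfp445, which is outside that list and guards imprints together with Zfp57, had 244 ± 41.8 and 245 ± 26.8 CPM (SD, n = 3). None of these 3 was called. The 18 KRAB cofactors, which are no members, had a median of -0.13 and no calls; Trim28 measured 1083 ± 390 and 893 ± 25.6 CPM and Setdb1 163 ± 22.9 and 180 ± 10.2 CPM.

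Levels can be compared between genes only per length, as RPKM (CPM per kilobase of annotated exon). In the controls the members ran from 72.9 RPKM in Zfp219, a partner of Sox9, down to 1.36 RPKM in Zfp846. Next after Zfp219 came Zfp422 at 47.4, Zfp428 at 47.0, Zfp664 at 46.0, Zfp146 at 42.8, Zfp706 at 42.5 and Zfp207 at 42.4 RPKM. The lead of Zfp219 rests on control replicate 2, since its CPM was 217, 522 and 249 in the controls and 232, 242 and 247 in the CKO. The called members sat lower in that order: in controls and CKO, Zfp110 had 9.21 and 2.21 RPKM, Zfp862 6.10 and 2.12, Zfp286 3.26 and 1.46, Zfp697 2.93 and 1.09 and Zfp738 1.94 and 0.665. Zfp110 thus ranked 94 of 245 in the controls, and Zfp738, whose annotated exons are long, ranked 240.

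By CPM the most abundant member was Zfp664, with 396, 300 and 384 CPM in the controls and 409, 376 and 379 CPM in the CKO. The largest control spread on the log2 scale was in Zfp692, with 12.3, 55.4 and 35.7 CPM in the controls and 24.9, 46.5 and 47.0 CPM in the CKO. Zfp57, a guardian of imprints, had 33.3, 104 and 99.8 CPM in the controls and 63.9, 108 and 106 CPM in the CKO. In both genes the library numbered 1 was the lowest of its genotype. Zfp51 was lowest in control replicate 2, with 16.3, 4.49 and 12.2 CPM in the controls and 11.98, 14.3 and 12.6 CPM in the CKO. Members just inside the minimum were Zfp53, Zfp941 and Zfp784, at a mean of 10.3, 10.2 and 10.01 counts per 1000000 reads, and just outside it were Zfp808, Zfp641 and Zfp786, at 9.81, 9.77 and 9.74.

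None of the neighbours of called members named here was called with them. Zfp110 lies between Zfp329 and Zfp128 in the RefSeq annotation, and these had log2 fold changes of -0.02 and 0.30. Zfp286 lies between Zfp287 (0.14) and Trim16 (0.12), and Zfp697 lies beside Phgdh (-0.04). None of these 5 was called by edgeR. Zfp738 lies beside a gene listed as A530054K11Rik (-0.59), also not called. Of 243 members placed in that annotation, 120 had a neighbour with a zinc finger symbol and 7 had one of the left-out genes beside them. One of these 7 is Zfp772, beside Zfp418, which fell from 5.24 ± 0.902 to 1.09 ± 0.316 CPM (SD, n = 3; edgeR adjusted p = 0.0147) while Zfp772 had higher CKO values.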

How the data were processed

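Values deposited by the authors are raw counts of reads by symbol, with a column for each of the 6 libraries. The submitters' processing notes name build mm9 together with HTSeq 0.5.4p3, DESeq 2.13 and BWA 0.7.6a-r433. For strandedness and annotation, nothing is given in the sources used here. Reads of antisense partners therefore cannot be told apart, and reads of near-identical zinc finger copies may be divided or dropped. The 3 lines of a merge conflict, 1 blank line and 1 repeated gene line were skipped, and no row lacked a gene name.

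The test was run in edgeR 4.0.16 under R 4.3.3: filterByExpr (minimum count 10) kept 14609 genes, libraries were scaled by TMM, and CKO was compared with control by the quasi-likelihood test with genotype alone. P-values were adjusted over all tested genes by Benjamini-Hochberg, with a threshold of 0.05. The code was tested on simulated counts. CPM values are TMM-scaled except in the rule for members. DESeq2 1.42.0, limma-voom (limma 3.58.1), other scalings and filters, the replicate number as a block, and leaving out each library were alternatives. The members and all lists were chosen with earlier results of these data known. Named genes were Thap11, every called member, the 6 largest changes each way without overlap, the 6 highest by CPM, up to 4 per role list, 3 on either side of the minimum, 3 with the largest control SD and members called by DESeq2; the text gives a selection of these.

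KRAB boxes (at least 13 of 22 pattern positions; 10 to 12 borderline) and C2H2 fingers were counted in GENCODE M21 coding sequences (GRCm38), translated, for 243 members; exon lengths came from the same annotation. Promoter sequences are from RefSeq (GRCm38.p6). No coordinates of the counted genes on mm9 were used. No 2 libraries agreed within sampling noise (lowest chi-square per degree of freedom 5.79).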

Additional observations from a re-analysis of the deposited data

How the results depend on the processing

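The 5 members called lower were also called with DESeq2 size factors in edgeR, limma-voom, no filter, at least 1 CPM in 3 libraries, and the DESeq2 Wald test. DESeq2 called 12 members lower and 3 higher, and over all genes 207 lower and 117 higher, in place of 103 and 28. An adjusted p threshold of 0.01 left 3 members, and 31 lower and 8 higher genes over all. A mean CPM of at least 20 left 2 called members. Leaving out 1 library at a time gave 1 to 9 members lower and 0 to 1 higher, and over all genes 10 to 147 lower and 6 to 72 higher, with the fewest lower calls without CKO replicate 3 and the most without control replicate 2; such fits hold fewer samples. The members' median of -0.0090 became 0.064 with library sizes alone, and ran from -0.015 to 0.062 with 1 library left out. In the same way the median of the neural list ran from -0.17 to 0.0045, that of KRAB repressors of known function from -0.057 to 0.15, that of members without a KRAB box from -0.10 to 0.0039, and that of members with 4 to 9 fingers from -0.030 to 0.017, so these medians take either sign; the cause was not tested. Medians of other groups crossed 0 too: RNA and ribosome factors from -0.15 to 0.036, chromatin partners from -0.15 to 0.00045, Zfp131 from -0.13 to 0.11, members with a KRAB box from -0.016 to 0.14, with 10 or more fingers from -0.023 to 0.096, with under 4 fingers from -0.14 to 0.0094, and without the core from -0.015 to 0.080. The median of members with the core stayed between -0.24 and -0.16. No single gene's call reversed. The fit with the replicate number as a block called 5 members lower, and 113 lower and 40 higher genes over all. No label pairs the samples by number. Same-numbered deviations correlated at 0.325, 0.0997 and -0.0238, and differently numbered ones between -0.246 and 0.199. With 3 libraries a group, these values cannot decide whether same-numbered libraries belong together. The motif split without each library and the non-overlap counts without control replicate 2 were added after seeing the data. With 3 libraries a group, their number limits the precision, and the effect of depth was not tested.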

Other observations

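Some Zfp genes under the minimum of 10 CPM also fell. The mean of the rule ran over both genotypes, so a fall could itself place a gene here. Of 70 such genes that were not left out, 52 could be tested, and by edgeR 5 fell and 0 rose, where 0.705% of all genes fell. DESeq2 called 11 lower and 2 higher, where it called 1.42% and 0.801% of all genes. Their median log2 fold change was 0.09, against -0.0090 for the members above the minimum. Zfp239 measured 12.6, 10.7 and 12.1 CPM in the controls and 2.80, 2.31 and 1.80 CPM in the CKO (log2 fold change -2.35 ± 0.22; edgeR adjusted p = 0.0059). Zfp661 measured 9.19, 10.9 and 11.99 CPM in the controls and 4.397, 4.29 and 3.44 CPM in the CKO (-1.40 ± 0.20; 0.0219). In both genes all CKO libraries lay well below all controls. Their control means, 11.8 and 10.7 CPM, were above the minimum.

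Zfp493 had 8.72, 4.62 and 7.58 CPM in the controls and 1.90, 1.49 and 1.23 CPM in the CKO (log2 fold change -2.17 ± 0.31; edgeR adjusted p = 0.0226). Zfp72 fell from 3.15 ± 1.17 to 0.566 ± 0.172 CPM (adjusted p = 0.0388) and Zfp455 from 3.15 ± 0.721 to 0.951 ± 0.197 CPM (SD, n = 3; edgeR adjusted p = 0.0469). In Zfp493 and Zfp72 control replicate 2 was the lowest control, yet it stayed above every CKO library.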
